A study of Arabidopsis thaliana with 12 samples.

Results

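The transcriptome of bou-2 rosettes was compared with that of WT rosettes at the end of the night, gene by gene and then by gene family. The comparison used 6 of the 12 libraries of the series, 3 of bou-2 and 3 of WT, and covered the 20458 genes with enough reads to be tested out of 33326 genes in the deposited table. bou-2 carries a T-DNA in the second exon of BOU in the Col-0 background and is a single insertion line with reduced, not absent, BOU transcript, and WT was Col-0. Both genotypes were grown for 35 days at 3000 ppm CO2 with 12 h of light per day and were shifted to ambient CO2 24 h before harvest. The night samples were taken 2 h before light onset by the sample labels and 3 h before it by the written protocol, as mature leaves or whole rosettes. The other 6 libraries, bou-2 and WT after light onset, entered the same fit. They thus took part in the filter, the scaling and the estimate of spread behind the night test. Their own effects served to show where the night effect differed from the day effect. Their titles, used for the groups, and the protocol put them at the beginning of the day while their source label names its end, and the hour of the day values is uncertain. The sources call the libraries biological triplicates but do not say which plants went into each, and the tests see only the scatter among these libraries.

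A BOUT DE SOUFFLE (BOU) is a carrier of the inner mitochondrial membrane, and leaves that lack it have low activity of glycine decarboxylase, the mitochondrial step of photorespiration. In air, photorespiration sends glycine to the mitochondria during the light, and mutants in its steps are usually kept alive at high CO2. At night leaves live on the starch stored during the day, and toward dawn, when starch runs low, transcripts of sugar-starvation genes normally begin to appear. The gene families below were read for mitochondrial stress, carbon supply, protein turnover, the photosynthetic apparatus, nutrient status, specialised metabolism, growth, defence, the clock and gene silencing. Their lists were chosen with earlier results of these data known, so the counts of members are descriptions. Some lists share genes, and the counts of such lists are not separate.

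The 6 night libraries held 24691089 to 30278172 estimated counts in bou-2 and 20553974 to 28313982 in WT. On the first principal component (28.2% of the variance) the genotypes separated at both times, and on the second (16.5%) the night libraries separated from the day libraries. BOU, which checks the labels, had 65.2, 67.0 and 65.5 TPM in bou-2, against 153, 162 and 176 TPM in WT, a log2 fold change of -1.42 ± 0.14 (SE, adjusted p = 0.000162). Mesophyll markers (4 genes, none at 0) summed to 22400 to 24100 TPM in bou-2 and 34400 to 36300 TPM in WT, guard cell markers (5 genes) to 23.2 to 25.2 and 32.0 to 34.5 TPM, and vascular markers (7 genes) to 273 to 419 and 254 to 390 TPM. In the same order, root markers (5 genes, with RHD6 and EXPA7 at 0) summed to 32.4 to 46.7 and 16 to 39.3 TPM, most of it PYK10, floral markers (7 genes) to 0.366 to 0.792 and 0.628 to 1.78 TPM, and meristem markers (4 genes) to 1.01 to 10.6 and 0.273 to 5.07 TPM. In whole tissue, fewer cells of a type and less RNA per cell cannot be told apart.

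At the end of the night 3022 genes were higher and 2499 lower in bou-2, by the quasi-likelihood test of edgeR at 0.05, with p-values adjusted after Benjamini and Hochberg over all transcripts tested. These are 14.8% and 12.2% of the genes tested, 27% in all, and every count of list members below is to be read against these shares. The median size of a called change was 0.76 on the log2 scale. A fitted change of at least 2-fold was called for 1078 higher and 840 lower genes. Under all 13 alternative settings 1627 genes kept a call as higher and 1387 as lower (7.95% and 6.78%), and no gene called here was called in the opposite direction under any of them. Leaving out bou-2 night replicate 3 gave the lowest counts, 1913 higher and 1606 lower. The fit on the 6 night libraries alone gave the highest, 3912 higher and 3647 lower of 19919 genes. The shares above thus depend on which libraries share the fit. The WT day libraries, which entered the shared fit, differed most among themselves. By a chi-square of their counts per transcript, pairs of them gave 56.9 to 91.3. Pairs within the night groups gave 9.75 to 26 and those within bou-2 by day 15.3 to 17.3. What this spread does to the night calls was not tested. Scaling by library totals in place of TMM factors gave 3853 higher and 2042 lower genes, 65.4% higher in place of 54.7%, with the median over all genes at 0.11 in place of 0.02. By day 27.6% of the genes were called, and of the genes called at night 3095 passed the test in the same direction by day and 69 in the opposite one.

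**Figure D1:**
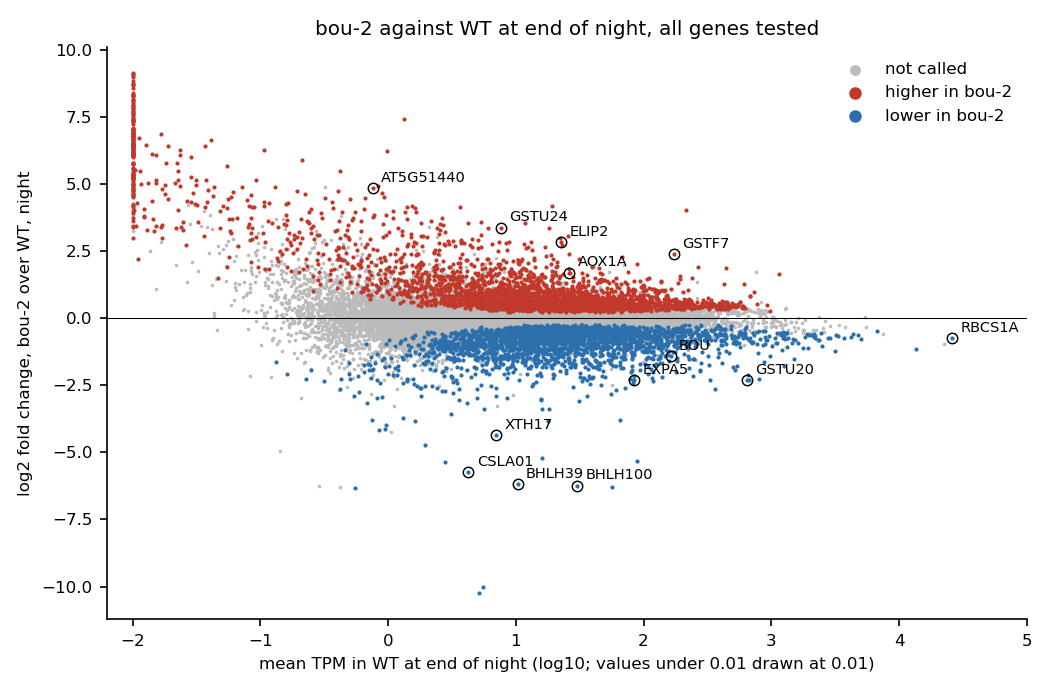
Log2 fold change of bou-2 over WT at the end of the night against the mean level in WT (TPM, log10 axis), 1 point per gene tested, red where higher in bou-2, blue where lower and grey where not called. Genes discussed in the text are circled, and the changes above 5 on the log2 scale lie mostly at genes with almost no signal in WT, while BHLH100 and BHLH39 reach below -6.

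The mitochondrial retrograde response is the set of nuclear genes that rise when mitochondria are disturbed. It is controlled by membrane-bound NAC factors that leave the endoplasmic reticulum and bind a short promoter motif, the mitochondrial dysfunction motif. Of the 15 members, all tested, 11 were higher in bou-2 and 0 lower, with a median log2 fold change of 2.09 beside 0.02 over all genes. Summed over the list, bou-2 libraries held 526, 431 and 416 TPM and WT libraries 99.2, 99.8 and 168 TPM, with no overlap. AT5G51440, encoding a small heat shock protein of the HSP20 family, had 29.0, 30.5 and 13.9 TPM in bou-2, against 0.427, 0.428 and 1.41 TPM in WT, a log2 fold change of 4.84 ± 0.55 (SE, adjusted p = 0.000295). The Cox19-like gene AT5G09570 had 8.45, 8.09 and 12.0 TPM in bou-2, against 0.497, 0.4 and 0.759 TPM in WT, with a log2 fold change of 3.95 ± 0.55 (SE, adjusted p = 0.000825). Both genes were close to silent in WT and clearly present in each bou-2 library. GSTU25, encoding a tau-class glutathione transferase, was at 7.99 ± 2.31 TPM in bou-2 and 0.529 ± 0.49 TPM in WT (SD, n = 3 each here and below), and WRKY63, a transcription factor, at 2.02 ± 0.99 TPM in bou-2 and 0.152 ± 0.127 TPM in WT. AT2G21640, named after its values were seen, was at 116 ± 11.3 TPM in bou-2 and 16.8 ± 2.97 TPM in WT, a log2 fold change of 2.67 (adjusted p = 0.000115). Of its NAC factors, named after their values were seen, NAC016 was at 4.04 ± 0.933 TPM in bou-2 and 0.883 ± 0.128 TPM in WT, with a log2 fold change of 2.09 (adjusted p = 0.0132), a call that was lost without WT night replicate 1. NAC013 rose by 0.60 on the log2 scale, while NAC017 gave a log2 fold change of 0.07 (adjusted p = 0.722). The number of members called as higher lay between 8 and 13 over the alternatives.

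Alternative respiration bypasses the proton-pumping complexes through alternative oxidases (AOX) and type II NAD(P)H dehydrogenases. Of 13 members 12 were tested, and 8 were higher and 1 lower in bou-2 (median 1.22). AOX1A (AT3G22370), the main stress-responsive oxidase, had 107, 87.1 and 79.1 TPM in bou-2, against 21.1, 22.7 and 34.7 TPM in WT, with a log2 fold change of 1.698 ± 0.20 (SE, adjusted p = 0.000352). NDB2 (AT4G05020), an external dehydrogenase that works with it, had 69.4, 65.7 and 79.0 TPM in bou-2, against 16.7, 17.1 and 26.9 TPM in WT, with a log2 fold change of 1.72 ± 0.21 (SE, adjusted p = 0.000471). The lowest bou-2 library was more than 2 times the highest WT library for each of this pair. AOX1D (AT1G32350) had 50.5, 13.9 and 12.4 TPM in bou-2, against 3.51, 1.59 and 4.64 TPM in WT, with a log2 fold change of 2.87 ± 0.68 (SE, adjusted p = 0.012), and the bou-2 values spread widely without reaching the WT values. AOX1B was near silent in WT, with 184 counts over the bou-2 libraries against 1 over the WT libraries, a ratio of 150 (95% counting interval 26.7 to 5976). NDB1 (AT4G28220) went the other way, at 21.7 ± 0.916 TPM in bou-2 and 34.0 ± 0.852 TPM in WT, with a log2 fold change of -0.75 ± 0.15 (SE, adjusted p = 0.00581). The 8 members called higher became 5 without WT night replicate 1 or bou-2 night replicate 2.

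The promoters of these 2 lists were searched for the mitochondrial dysfunction motif, the letters that these NAC factors bind. The letters CTTGNNNNNCAAG and CTTGNNNNNCACG were searched on both strands of the 500 bases before the annotated gene start in TAIR10.1 (the first form can match both strands at 1 place). They occur before 574 of 27443 protein-coding genes (2.09%) and 342 of the 19470 tested (1.76%). They occur before 59 of the 2788 higher genes (2.12%), 33 of the 2450 lower genes (1.35%) and 8 of the 27 distinct members of both lists (29.6%). Among the 19 members called higher they occur before 5 (26.3%). The other members with a match, NDA1, NAC017 and CYP81D8, were not called. Since the lists were drawn up from genes known for this response, the shares within the lists are a description. The 4 matches below belong to higher members and overlap no other annotated gene, with the matched letters in capitals and written 5′ to 3′ on the strand of the gene.
AOX1B, chr3:7903971-7903999, plus strand: tgtcttttCGTGTGCTACAAGtcttttag
NDB2, chr4:2572340-2572368, plus strand: cgatctggCTTGGCCACCAAGattgtttg
AT2G21640, chr2:9254319-9254347, plus strand: tttagtaaCTTGCTCTCCAAGgagatcta
AT5G51440, chr5:20891045-20891073, plus strand: ttattttaCTTGGAGACCACGcagttcta
The AOX1B match reads CTTGNNNNNCACG on the opposite strand. The matches start 118, 79, 51 and 110 bases before the gene start for AOX1B, NDB2, AT2G21640 and AT5G51440, in that order. These 4 genes are shown because they were higher in bou-2 at night. A match of letters is not a site shown to be bound.

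The phosphorylating respiratory chain had few calls beside these bypasses. Of its 61 subunit and assembly genes 51 were tested, and 8 were higher (15.7%, near the 14.8% over all genes) and 1 lower (median 0.14). The higher ones include 2 assembly factors of cytochrome c oxidase. COX17 (AT3G15352), a copper chaperone, had 44.0, 44.0 and 50.02 TPM in bou-2, against 15.98, 12.9 and 16.1 TPM in WT, with a log2 fold change of 1.498 ± 0.16 (SE, adjusted p = 0.000199). COX15 (AT5G56090), which makes heme A, had 18.0, 16.7 and 15.9 TPM in bou-2, against 5.89, 6.65 and 5.86 TPM in WT, with a log2 fold change of 1.36 ± 0.12 (SE, adjusted p = 0.000114). Both stood well apart from WT in every library. The subunit gene COX6B (AT1G22450) was at 153 ± 3.86 TPM in bou-2 and 91.7 ± 2.77 TPM in WT, with a log2 fold change of 0.64 (adjusted p = 0.000874). The lower call was lost without WT night replicate 1 or 2 or bou-2 night replicate 1 or 3, and a fit on the 6 night libraries alone called 17 genes of this list higher.

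BOU belongs to the mitochondrial carrier family, of which 47 of 48 members were tested. At night 13 were higher (27.7%) and 4 lower, with BOU among these 4 and a median of 0.10 over the family. The ADP/ATP carriers export the ATP made in mitochondria. AAC2 (AT5G13490) had 64.0, 62.2 and 73.8 TPM in bou-2, against 4.55, 6.14 and 7.49 TPM in WT, with a log2 fold change of 3.35 ± 0.43 (SE, adjusted p = 0.000543). Its level in bou-2 thus lay well above that in WT in each library. AAC3 (AT4G28390) was at 35.4 ± 7.13 TPM in bou-2 and 10.8 ± 1.43 TPM in WT, with a log2 fold change of 1.61 ± 0.33 (SE, adjusted p = 0.00551). APC1 (AT5G61810), an ATP-Mg/phosphate carrier, fell by 0.58 on the log2 scale, and AT3G21390, a carrier without a symbol, by 0.41. The 13 higher members became 4 to 6 when any 1 of the 6 night libraries was left out.

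Glutathione transferases join glutathione to toxic compounds, and the tau and phi classes are widely used as stress reporters. Of 57 members 50 were tested, and 15 were higher (30%) and 8 lower. GSTU24 (AT1G17170) had 86.2, 84.8 and 87.1 TPM in bou-2, against 6.14, 4.70 and 11.99 TPM in WT, with a log2 fold change of 3.38 ± 0.35 (SE, adjusted p = 0.000175). GSTU1 (AT2G29490) had 13.7, 18.5 and 13.3 TPM in bou-2, against 0.952, 0.89 and 1.06 TPM in WT, with a log2 fold change of 3.85 ± 0.35 (SE, adjusted p = 0.000115). GSTF7 (AT1G02920) reached 699, 856 and 1372 TPM in bou-2, against 137, 185 and 195 TPM in WT, with a log2 fold change of 2.39 ± 0.49 (SE, adjusted p = 0.00597), but its sequence is close to that of other phi-class members, and how the counting split reads between them was not tested. The family did not move as a block, as several abundant members were lower in bou-2. GSTU20 (AT1G78370), which acts with glucosinolate synthesis, had 144, 187 and 89.2 TPM in bou-2, against 753, 506 and 682 TPM in WT, with a log2 fold change of -2.31 ± 0.39 (SE, adjusted p = 0.00197). GSTF11 (AT3G03190) (also a glucosinolate gene) fell by 2.05 and TT19 (AT5G17220), which carries anthocyanins to the vacuole, by 1.67 on the log2 scale. GSTU24 is also counted among the retrograde genes above, and TT19 among the anthocyanin genes below. The 8 lower members became 5 on leaving out any night library other than WT night replicate 2.

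Heat shock proteins and their factors were higher in 34 and lower in 6 of 132 members tested out of 152 (25.8% and 4.55%, median 0.19). HSP70 (AT3G12580) had 34.4, 47.9 and 13.4 TPM in bou-2, against 2.69, 1.93 and 3.44 TPM in WT, with a log2 fold change of 3.46 ± 0.43 (SE, adjusted p = 0.000481). HSFA2 (AT2G26150), a heat shock factor that responds to oxidative stress, was at 3.25 ± 0.484 TPM in bou-2 and 0.232 ± 0.201 TPM in WT, with a log2 fold change of 3.64 ± 0.52 (SE, adjusted p = 0.000895). HSFA6A (AT5G43840) had 128 counts in bou-2 and 3 in WT, a ratio of 34.9 (95% counting interval 11.7 to 171). The lower members included HSP18.2 (AT5G59720), with a log2 fold change of -0.93 (adjusted p = 0.0379), a call that was lost with library totals and without WT night replicate 1 or any bou-2 night replicate. The 6 lower members of the list became 1 to 3 on leaving out any night library other than WT night replicate 3.

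**Figure D2:**
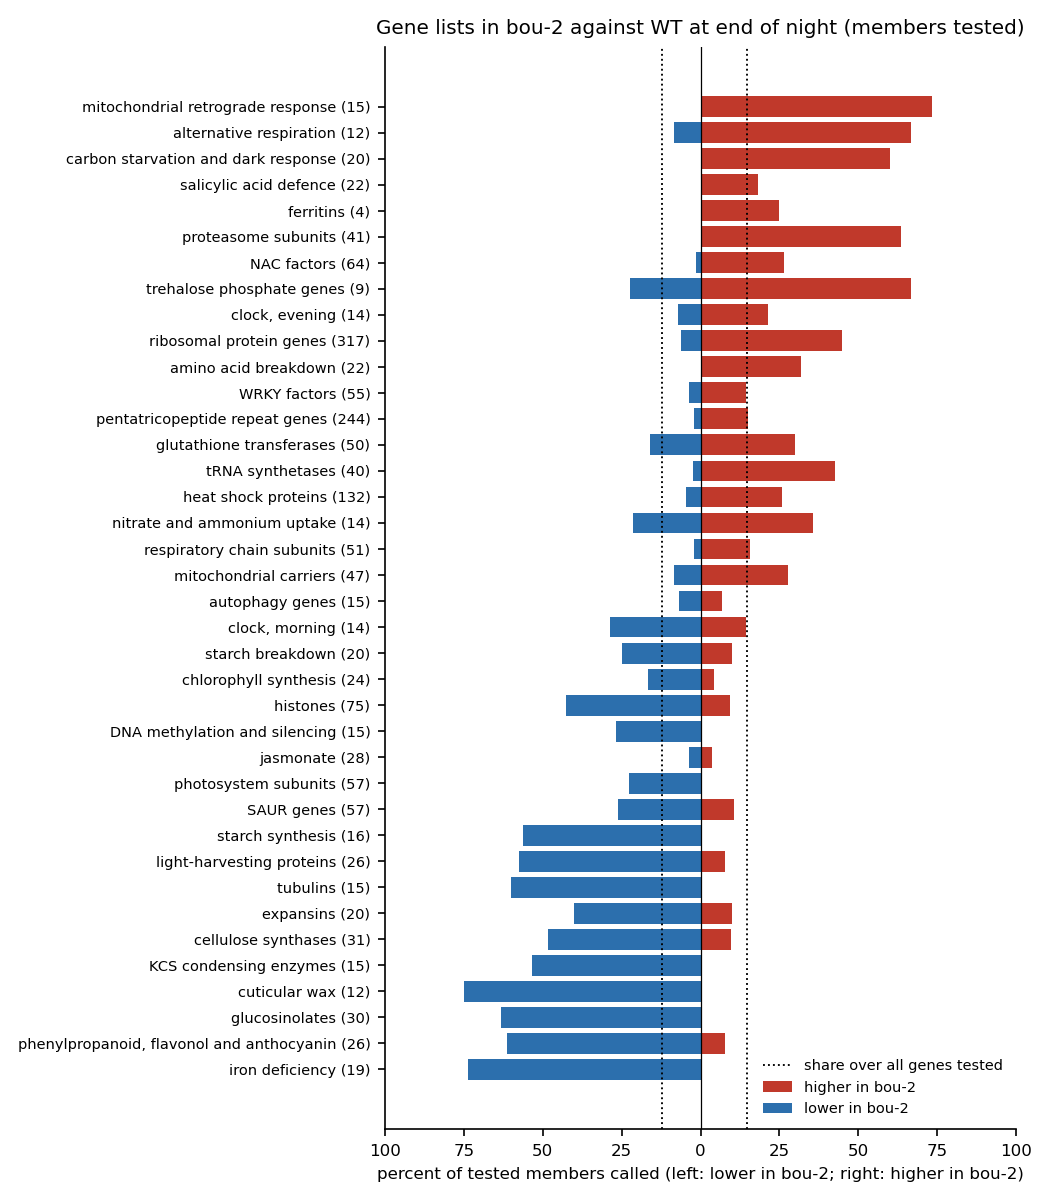
Share of tested members (percent) of 38 gene lists called higher in bou-2 (red, to the right) or lower in bou-2 (blue, to the left) at the end of the night, with the number of members tested in brackets and lists ordered by median log2 fold change. Dotted lines mark the shares over all genes tested, 14.8% higher and 12.2% lower, and the iron deficiency list (14 of 19 lower) and the mitochondrial retrograde list (11 of 15 higher) stand at the ends.

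Genes of the carbon starvation and dark response are repressed by sugar and rise in extended darkness. Of the 20 members, all tested, 12 were higher in bou-2 and 0 lower, with a median of 1.17. Their sum was 761, 783 and 663 TPM in bou-2, against 289, 208 and 267 TPM in WT. DIN10 (AT5G20250), a raffinose synthase family gene named for its dark induction, had 28.5, 26.8 and 24.4 TPM in bou-2, against 3.10, 3.20 and 1.30 TPM in WT, with a log2 fold change of 3.29 ± 0.44 (SE, adjusted p = 0.000694). AT2G33830, a dormancy-associated gene, had 163, 145 and 133 TPM in bou-2, against 29.4, 21.9 and 26.8 TPM in WT, with a log2 fold change of 2.38 ± 0.19 (SE, adjusted p = 5.55e-05). AT3G15450 had 111, 102 and 65.8 TPM in bou-2, against 21.2, 15.8 and 14.7 TPM in WT, with a log2 fold change of 2.32 ± 0.29 (SE, adjusted p = 0.000476). In each of these genes the bou-2 and WT libraries were far apart. Not every starvation gene followed. ASN1, the dark-induced asparagine synthetase named after its values were seen, was at 12.3 ± 6.12 TPM in bou-2 and 13.7 ± 7.81 TPM in WT, with a log2 fold change of -0.25 (adjusted p = 0.886). Over the alternatives the number of higher members was 8 to 14. In the authors' own sugar measurements at night, glucose and fructose were higher in bou-2. Sucrose, maltose, mannose, raffinose and sorbitol were lower, and xylose was not marked as different. How these sugar levels relate to the transcripts was not tested.

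The class II trehalose phosphate synthases have no known synthase activity and several respond to sugar supply. The list shares 4 genes with the one above. Of 12 trehalose phosphate genes 9 were tested, and 6 were higher and 2 lower. TPS11 (AT2G18700) had 29.6, 30.8 and 29.1 TPM in bou-2, against 6.46, 6.46 and 5.21 TPM in WT, with a log2 fold change of 2.198 ± 0.19 (SE, adjusted p = 9.12e-05). TPS10 (AT1G60140) had 53.2, 53.6 and 59.0 TPM in bou-2, against 13.8, 11.9 and 11.8 TPM in WT, with a log2 fold change of 2.04 ± 0.16 (SE, adjusted p = 5.14e-05). TPS8 (AT1G70290) had 26.0, 25.6 and 24.6 TPM in bou-2, against 10.6, 9.56 and 10.9 TPM in WT, with a log2 fold change of 1.19 ± 0.20 (SE, adjusted p = 0.00203). The libraries of each group lay close together in this family, and TPS9 (AT1G23870) rose as well, by 1.16 on the log2 scale. TPS5 (AT4G17770) had 9.97, 10.5 and 9.79 TPM in bou-2, against 19.9, 18.7 and 27.9 TPM in WT, with a log2 fold change of -1.24 ± 0.17 (SE, adjusted p = 0.000885). TPS1 (AT1G78580), the active synthase, fell by 0.68 on the log2 scale. The TPS1 call was lost without WT night replicate 3 or bou-2 night replicate 3, which left 1 lower member.

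The difference between the night and the day effect passed the test for 242 genes (1.18%), 132 with the more positive effect at night (0.645%) and 110 with the more negative one (0.538%). Among the 20 starvation genes 5 did, all with the more positive effect at night. For AT3G15450 the log2 fold change was 2.32 (adjusted p = 0.000476) at night and -0.91 (adjusted p = 0.0453) by day, a difference of 3.23 (adjusted p = 0.00799). TPS8 gave 1.19 at night and -0.94 (adjusted p = 0.00902) by day, a difference of 2.13 (adjusted p = 0.00947). KMD4, an F-box gene named after its values were seen, gave 0.93 (adjusted p = 0.00278) at night and -1.34 (adjusted p = 0.000463) by day, a difference of 2.27 (adjusted p = 0.00281). For TPS11 the difference was 1.801 (adjusted p = 0.0144) and for TPS10 1.30 (adjusted p = 0.028). These genes were higher in bou-2 at the end of the night and, for AT3G15450, TPS8 and KMD4, lower in bou-2 by day. By day the starvation list summed to 266, 256 and 283 TPM in bou-2, against 183, 592 and 135 TPM in WT. WT day replicate 2 thus stood apart for this list. The day effects on their own were not fitted under the alternatives. The differences of AT3G15450, TPS8 and KMD4 were called under all 18 alternatives. That of TPS11 was lost without bou-2 night replicate 2, and that of TPS10 without any 1 of 9 libraries (all but those of WT by day). Over all genes, leaving out any 1 night library left 30 to 74 positive and 22 to 53 negative calls, and any 1 bou-2 day library 34 to 62 and 27 to 82, while leaving out WT day replicate 3 gave 534 and 548.

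**Figure D3:**
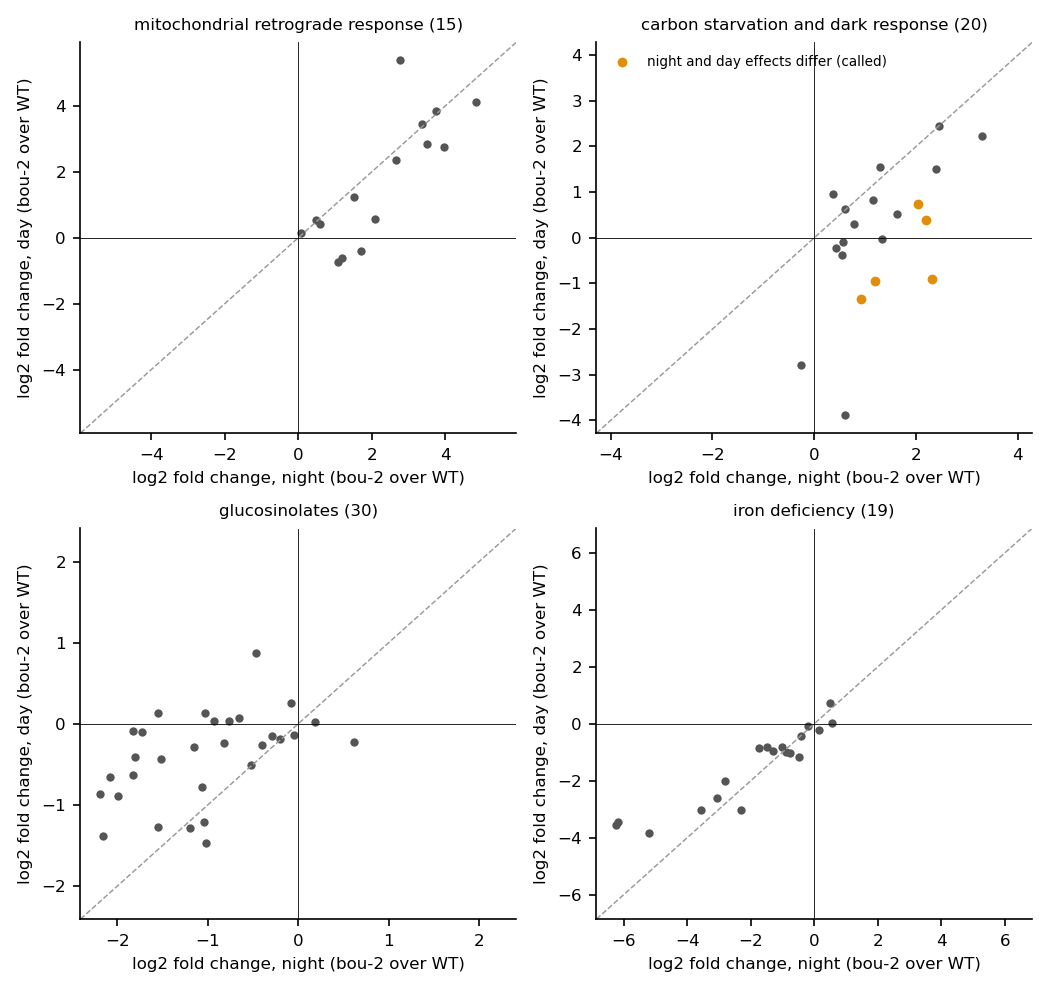
Log2 fold change of bou-2 over WT at night (horizontal axis) and by day (vertical axis) for the members of 4 gene lists, 1 point per gene, with the dashed line where both effects are equal. Orange points are genes whose night and day effects differed (5 of the 20 carbon starvation genes, all to the right of the line), and in the iron deficiency panel 14 of 19 genes were lower at night, with BHLH100 at -6.24 at night and -3.56 (adjusted p = 0.0013) by day.

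Amino acids replace sugars as a respiratory substrate when carbon runs short. Of the 22 breakdown genes, all tested, 7 were higher and 0 lower (median 0.35). ERD5 (AT3G30775), the mitochondrial proline dehydrogenase, had 50.6, 55.2 and 55.4 TPM in bou-2, against 15.9, 15.1 and 17.2 TPM in WT, with a log2 fold change of 1.64 ± 0.39 (SE, adjusted p = 0.0118). HPD (AT1G06570), which makes homogentisate in tyrosine breakdown, had 53.3, 66.2 and 62.4 TPM in bou-2, against 26.3, 24.1 and 30.1 TPM in WT, with a log2 fold change of 1.07 ± 0.10 (SE, adjusted p = 0.000122). In branched-chain amino acid breakdown DIN4 (AT3G13450), a subunit of the ketoacid dehydrogenase, rose by 0.88 on the log2 scale and IVD (AT3G45300), isovaleryl-CoA dehydrogenase, by 0.85. The 7 higher genes became 4 without WT night replicate 1 or 2 or bou-2 night replicate 2 or 3.

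Starch is made from ADP-glucose in the light and broken down at night by amylases and debranching enzymes. Of the 16 synthesis genes, all tested, 9 were lower (56.2%) and 0 higher, with a median of -0.49. GBSS1 (AT1G32900), the granule-bound synthase that makes amylose, had 74.7, 80.8 and 72.9 TPM in bou-2, against 230.0, 215 and 382 TPM in WT, with a log2 fold change of -1.95 ± 0.19 (SE, adjusted p = 0.000162). Every bou-2 library was below 81 TPM and every WT library above 214 TPM for GBSS1. APL1 (AT5G19220), the main large subunit of ADP-glucose pyrophosphorylase, was at 187 ± 11.8 TPM in bou-2 and 273 ± 11.97 TPM in WT, with a log2 fold change of -0.65 (adjusted p = 0.00592), and SS1 (AT5G24300) at 38.1 ± 2.75 TPM in bou-2 and 58.1 ± 4.19 TPM in WT, with a log2 fold change of -0.71 (adjusted p = 0.0115). Of the 20 breakdown genes, all tested, 2 were higher and 5 lower (25%). MEX1 (AT5G17520), the maltose exporter of the chloroplast, had 23.3, 24.4 and 23.3 TPM in bou-2, against 45.5, 41.6 and 54.6 TPM in WT, with a log2 fold change of -1.10 ± 0.13 (SE, adjusted p = 0.000377). BAM3 (AT4G17090), the main beta-amylase of the night, fell by 0.74 and PHS2 (AT3G46970), a cytosolic glucan phosphorylase, rose by 0.68 on the log2 scale. The 2 higher genes became 1 without WT night replicate 1 or 2 or bou-2 night replicate 2 or 3, and the fit on the 6 night libraries alone called 10 breakdown genes lower.

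Many genes of the proteasome, which degrades tagged proteins, rose in small steps. All 41 proteasome subunit genes were tested, and 26 were higher (63.4%) and 0 lower, with a median of 0.43 and a largest change of 0.88. Their sum was 3836, 4070 and 3863 TPM in bou-2, against 2636, 2650 and 2602 TPM in WT. PAA2 (AT2G05840), an alpha subunit of the core particle, had 228, 243 and 228 TPM in bou-2, against 126, 124 and 134 TPM in WT, with a log2 fold change of 0.76 ± 0.11 (SE, adjusted p = 0.000904). PBD2 (AT4G14800), a beta subunit, was at 143 ± 8.24 TPM in bou-2 and 79.0 ± 3.15 TPM in WT, with a log2 fold change of 0.74 (adjusted p = 0.000171). The changes were modest, from -0.23 to 0.88 across subunits with 15 not called, and 20 to 31 members were called over the alternatives. Autophagy, the other route of bulk degradation, had few calls. Of 16 genes 15 were tested, with 1 higher and 1 lower, and a median of 0.03 that lay between -0.03 and 0.12 over the alternatives. The higher call was lost without any 1 night library and the lower one without any night library other than WT night replicate 2.

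Ribosomal protein genes were higher in 142 and lower in 20 of the 317 tested out of 344 (44.8% and 6.31%), with a median of 0.35. Their sum was 91824, 91499 and 95362 TPM in bou-2, against 76042, 76582 and 63562 TPM in WT. Members moved in both directions. AT5G20160, of the L7Ae family, was at 280.2 ± 32.6 TPM in bou-2 and 127 ± 11.5 TPM in WT, with a log2 fold change of 1.03 (adjusted p = 0.000806), and RPSAb (AT3G04770), of the small cytosolic subunit, at 11.1 ± 1.27 TPM in bou-2 and 4.24 ± 1.15 TPM in WT, with a log2 fold change of 1.29 (adjusted p = 0.00216). AT5G39850 (ribosomal protein S4) had 27.5, 26.4 and 34.5 TPM in bou-2, against 7.72, 7.75 and 6.56 TPM in WT, with a log2 fold change of 1.89 ± 0.24 (SE, adjusted p = 0.000536). Among the lower members were abundant proteins of the bacterial type. RPL9 (AT3G44890) had 249.8, 244 and 231 TPM in bou-2, against 412, 431 and 369.6 TPM in WT, with a log2 fold change of -0.85 ± 0.15 (SE, adjusted p = 0.00237). RPS9 (AT1G74970) had 186, 198 and 170.0 TPM in bou-2, against 314, 332 and 284 TPM in WT, with a log2 fold change of -0.86 ± 0.16 (SE, adjusted p = 0.00346), and emb1473 (AT1G78630), of the L13 family, was at 322 ± 17.5 TPM in bou-2 and 562 ± 35.5 TPM in WT, with a log2 fold change of -0.91 (adjusted p = 0.00248). Ribosomal proteins come as near-identical copies, between which the counting may have split reads. The 142 higher members became 86 without WT night replicate 3, 91 without bou-2 night replicate 1 and 71 without bou-2 night replicate 3.

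Aminoacyl-tRNA synthetases charge tRNAs for translation, and 17 of 40 tested out of 49 were higher (42.5%) and 1 lower. The lysyl-tRNA synthetase ATKRS-1 (AT3G11710) was at 103 ± 3.56 TPM in bou-2 and 57.1 ± 3.64 TPM in WT, with a log2 fold change of 0.74 (adjusted p = 0.000675). The seryl-tRNA synthetase SRS (AT1G11870) was the lower one, at 17.7 ± 0.743 TPM in bou-2 and 22.8 ± 1.06 TPM in WT, with a log2 fold change of -0.47 (adjusted p = 0.00734). Pentatricopeptide repeat proteins process RNA in mitochondria and plastids, and 37 of 244 tested out of 261 were higher (15.2%, near the share over all genes) and 5 lower (2.05%), with a median of 0.28. BIR6 (AT3G48250), needed for splicing of a mitochondrial transcript, was at 7.29 ± 0.718 TPM in bou-2 and 2.92 ± 0.224 TPM in WT, with a log2 fold change of 1.21 (adjusted p = 0.000655). Without bou-2 night replicate 3 the higher synthetase genes numbered 10 and the higher pentatricopeptide repeat genes 20. Those of the pentatricopeptide repeat list numbered 23 without WT night replicate 3 and 24 without bou-2 night replicate 1, and the 5 lower members of that list became 2 or 3 without any 1 night library.

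**Figure D4:**
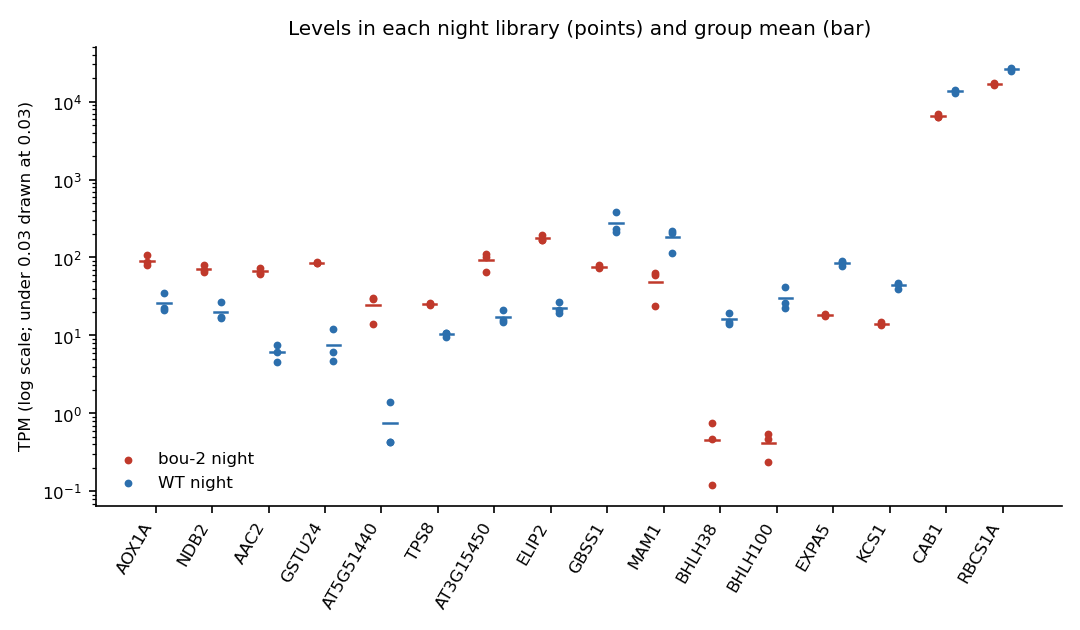
TPM (log axis) of 16 genes in the 3 bou-2 night libraries (red) and the 3 WT night libraries (blue), with points for libraries and bars for group means. In each gene the points of the genotypes do not overlap, with AOX1A to ELIP2 higher in bou-2 and GBSS1 to RBCS1A lower.

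Many genes of the photosynthetic apparatus were lower in bou-2. Of 27 light-harvesting genes 26 were tested, and 15 were lower (57.7%) and 2 higher, with a median of -0.60. Their sum was 21714, 23494 and 21488 TPM in bou-2, against 35381, 34761 and 37293 TPM in WT. CAB1 (AT1G29930), an LHCB1 antenna gene, had 6335, 6946 and 6286 TPM in bou-2, against 13670, 12990 and 13950 TPM in WT, with a log2 fold change of -1.16 ± 0.18 (SE, adjusted p = 0.00151). LHB1B1 (AT2G34430), another LHCB1 copy, had 147, 155 and 136 TPM in bou-2, against 524, 510.1 and 526 TPM in WT, with a log2 fold change of -1.94 ± 0.25 (SE, adjusted p = 0.000517). LHCB2.3 (AT3G27690) was at 94.0 ± 12.2 TPM in bou-2 and 249.7 ± 34.6 TPM in WT, with a log2 fold change of -1.51 ± 0.28 (SE, adjusted p = 0.0031). The LHCB1 copies are near-identical, and the split of reads between them is uncertain. The 2 higher members were the early light-induced proteins, relatives of the antenna that accumulate under light stress and bind chlorophyll. ELIP2 (AT4G14690) had 166, 192 and 169 TPM in bou-2, against 21.2, 27.2 and 19.6 TPM in WT, with a log2 fold change of 2.85 ± 0.20 (SE, adjusted p = 3.26e-05). ELIP1 (AT3G22840) was at 143 ± 28.3 TPM in bou-2 and 53.4 ± 15.9 TPM in WT, with a log2 fold change of 1.31 (adjusted p = 0.018), and lost its call without WT night replicate 1 or 3 or bou-2 night replicate 3.

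All 57 photosystem subunit genes were tested, and 13 were lower (22.8%) and 0 higher, with a median of -0.42. Their sum was 35926, 38448 and 35574 TPM in bou-2, against 44851, 44600 and 46075 TPM in WT. PSAE-2 (AT2G20260), of photosystem I, was at 414 ± 25.2 TPM in bou-2 and 674 ± 59.3 TPM in WT, with a log2 fold change of -0.81 (adjusted p = 0.00439), and PSBQ-2 (AT4G05180), of the oxygen-evolving complex, at 803 ± 53.2 TPM in bou-2 and 1284 ± 145 TPM in WT, with a log2 fold change of -0.78 (adjusted p = 0.0112). The 13 lower genes became 5 to 7 when any 1 night library was left out and 29 on the 6 night libraries alone. Chlorophyll synthesis had 4 lower (16.7%, beside 12.2% over all genes) and 1 higher (4.17%, beside 14.8%) of 24 genes, all tested. HEMA1 (AT1G58290), the entry step of tetrapyrrole synthesis, rose, at 317 ± 6.86 TPM in bou-2 and 199 ± 18.0 TPM in WT, with a log2 fold change of 0.57 (adjusted p = 0.0062), and CHLD (AT1G08520), a subunit of magnesium chelatase, fell by 0.54 on the log2 scale. The 4 lower genes became 2 without bou-2 night replicate 1, 1 without bou-2 night replicate 3, 11 with DESeq2's Wald test and 12 on the 6 night libraries alone.

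RBCS1A, RCA and the antenna gene CAB1 were among the 10 most abundant nuclear protein-coding transcripts of the WT night leaf. AT2G25510 was also among them, with a log2 fold change of -0.32 (adjusted p = 0.476). RBCS1A (AT1G67090), the main small subunit of Rubisco, had 16870, 17200 and 16350 TPM in bou-2, against 25990, 27040 and 24800 TPM in WT, with a log2 fold change of -0.74 ± 0.14 (SE, adjusted p = 0.00435). RCA (AT2G39730), Rubisco activase, had 3101, 3365 and 2979 TPM in bou-2, against 4245, 4246 and 4587 TPM in WT, with a log2 fold change of -0.57 ± 0.12 (SE, adjusted p = 0.00525). Of the other small subunit copies RBCS2B (AT5G38420) gave a log2 fold change of -0.78 (adjusted p = 0.0187), RBCS3B (AT5G38410) one of -0.61 (adjusted p = 0.061) and RBCS1B (AT5G38430) one of -0.48 (adjusted p = 0.0497), and reads may be split between these copies. The RBCS2B call was lost without WT night replicate 1 or 2 or bou-2 night replicate 2 or 3, and the RBCS1B call without any night library other than WT night replicate 3. The mesophyll markers moved with these families. They are themselves photosynthesis genes, 3 of 4 were lower (RBCS1A, RCA and CA1), none was at 0, their sums are given above, and the part of cell makeup in these results was not tested.

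Iron-deficiency genes were mostly lower, with the lowest median of the lists described. Plants short of iron induce the Ib group of bHLH factors (BHLH38, BHLH39, BHLH100 and BHLH101), which act with FIT on uptake and transport, while ferritins store iron. Of 21 members 19 were tested, and 14 were lower (73.7%) and 0 higher, with a median of -1.30. BHLH100 (AT2G41240) had 0.241, 0.467 and 0.552 TPM in bou-2, against 22.7, 41.7 and 25.9 TPM in WT, with a log2 fold change of -6.24 ± 0.62 (SE, adjusted p = 0.000162). BHLH38 (AT3G56970) (chromosome 3, 21084035 to 21085245) had 0.122, 0.758 and 0.477 TPM in bou-2, against 14.7, 19.5 and 14.1 TPM in WT, with a log2 fold change of -5.21 ± 0.66 (SE, adjusted p = 0.000527). Both genes were almost off in bou-2. BHLH39 (AT3G56980) (chromosome 3, 21086390 to 21087710), the neighbour of BHLH38, had 0.201, 0.223 and 0 TPM in bou-2, against 8.67, 12.9 and 9.34 TPM in WT, with a log2 fold change of -6.19 ± 0.80 (SE, adjusted p = 0.000576). BHLH101 (AT5G04150) had 0.324, 0.337 and 0.16 TPM in bou-2, against 2.36, 3.51 and 3.53 TPM in WT, with a log2 fold change of -3.57 ± 0.58 (SE, adjusted p = 0.00178). Each of these 4 factors was above 2 TPM in every WT library and below 1 TPM in every bou-2 library. Further regulators were named after their values were seen. PYE, which represses iron storage and redistribution genes, fell by 0.78 on the log2 scale, BTS, a ligase that acts on bHLH factors, by 1.29 and FIT by 1.47.

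Of the other genes on the iron list, also named after their values were seen, NAS4, for nicotianamine synthesis, fell by 1.73 and ZIF1, a vacuolar transporter, by 1.03 on the log2 scale, and the ferric reductase gene FRO6 gave a log2 fold change of 0.15 (adjusted p = 0.526). AT1G47400 had 2.93, 5.37 and 3.78 TPM in bou-2, against 26.3, 42.3 and 25.4 TPM in WT, with a log2 fold change of -3.07 ± 0.45 (SE, adjusted p = 0.0011). Over the alternatives 12 to 14 genes of the list were lower. Of the 4 ferritin genes FER1 (AT5G01600) was higher at night, with 305, 289 and 259 TPM in bou-2, against 146, 86.9 and 162 TPM in WT, a log2 fold change of 1.01 ± 0.26 (SE, adjusted p = 0.0165). FER2, FER3 and FER4, named after their values were seen, gave log2 fold changes of 0.55, 0.14 and 0.32 with adjusted p from 0.088 to 0.38. By day all 4 passed the test as higher, with a median of 1.65 beside 0.43 at night, and the difference between the times passed the test for 1 of them, FER3. The FER1 call was lost without WT night replicate 2 or bou-2 night replicate 1.

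Glucosinolates are sulfur-rich defence compounds, made in Brassicaceae from methionine (the aliphatic kind) or tryptophan (the indolic kind). Of 32 genes 30 were tested, and 19 were lower (63.3%) and 0 higher, with a median of -1.04. Their sum was 3288, 3583 and 2657 TPM in bou-2, against 6490, 4363 and 7076 TPM in WT. Much of this sum came from the genes TGG1 and TGG2, whose enzymes cleave glucosinolates. These had means of 1297 and 569 TPM in bou-2 and 2500 and 1217 TPM in WT. MYB29 (AT5G07690), a regulator of the aliphatic branch, had 10.8, 11.2 and 4.90 TPM in bou-2, against 40.8, 32.1 and 39.3 TPM in WT, with a log2 fold change of -2.16 ± 0.31 (SE, adjusted p = 0.000978). BCAT4 (AT3G19710), which starts the elongation of methionine, had 42.6, 41.0 and 13.6 TPM in bou-2, against 147, 70.9 and 197 TPM in WT, with a log2 fold change of -2.19 ± 0.47 (SE, adjusted p = 0.00702). MAM1 (AT5G23010), the synthase of the elongation cycle, had 59.7, 62.4 and 23.6 TPM in bou-2, against 207, 115 and 221 TPM in WT, with a log2 fold change of -1.998 ± 0.45 (SE, adjusted p = 0.0097), and IMD1 (AT5G14200) followed with a log2 fold change of -2.09 (adjusted p = 0.000931). Within WT the second library was the lowest for these enzymes, and within bou-2 the third, yet the genotypes did not overlap.

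The members of the indolic branch, named after their values were seen, were more mixed. CYP79B3 fell by 1.07 and MYB34 by 1.02 on the log2 scale, while CYP79B2 gave a log2 fold change of -0.20 (adjusted p = 0.744), CYP83B1 -0.29 (adjusted p = 0.405) and MYB51 0.62 (adjusted p = 0.17). The CYP79B3 call was lost without any night library other than WT night replicate 2. The myrosinase genes TGG1 and TGG2, whose enzymes cleave glucosinolates in guard cells and myrosin cells, fell by 1.05 and 1.2 on the log2 scale. Guard cell markers moved with TGG1 and TGG2 (3 of 5 lower, with the sums given above), and their part was not tested. By day 4 genes of the list were lower and the median was -0.25, but the difference between night and day passed edgeR's test for 0 of the 30 genes (14 at an unadjusted p under 0.05, and 6 with DESeq2's Wald test after adjustment), and the shares called at each time do not show that the effects differ. Over the alternatives 15 to 23 members were lower at night.

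Genes of phenylpropanoid, flavonol and anthocyanin synthesis were mostly lower at night. All 26 genes were tested, and 16 were lower (61.5%) and 2 higher, with a median of -1.13. CHIL (AT5G05270), a chalcone isomerase-like protein, had 45.0, 38.8 and 42.1 TPM in bou-2, against 129.6, 103 and 145 TPM in WT, with a log2 fold change of -1.69 ± 0.29 (SE, adjusted p = 0.00215). FLS1 (AT5G08640), flavonol synthase, was at 25.9 ± 4.27 TPM in bou-2 and 68.9 ± 9.37 TPM in WT, with a log2 fold change of -1.52 ± 0.28 (SE, adjusted p = 0.00317). 4CL3 (AT1G65060), the coumarate ligase of the flavonoid branch, was at 15.3 ± 0.639 TPM in bou-2 and 42.8 ± 1.38 TPM in WT, with a log2 fold change of -1.58 (adjusted p = 0.00032). Chalcone synthase makes the first flavonoid of the pathway. Its gene CHS, named after its values were seen, was at 344 ± 15.5 TPM in bou-2 and 783 ± 127 TPM in WT, with a log2 fold change of -1.29 (adjusted p = 0.00158). The 2 higher members were regulators, while TT8, a bHLH activator of the late flavonoid genes that was named after its values were seen, fell by 1.46 on the log2 scale. MYBL2 (AT1G71030), a repressor of anthocyanin synthesis, had 13.7, 14.3 and 17.1 TPM in bou-2, against 5.05, 2.47 and 4.88 TPM in WT, with a log2 fold change of 1.76 ± 0.38 (SE, adjusted p = 0.00717). PAP2 (AT1G66390), an activator of anthocyanin synthesis, had 4.54, 10.4 and 8.25 TPM in bou-2, against 1.36, 1.36 and 2.56 TPM in WT, with a log2 fold change of 2.02 (adjusted p = 0.0184), a call that was lost without WT night replicate 1 or 2 or bou-2 night replicate 2 or 3.

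Genes of the leaf surface were mostly lower. The cuticle is made by epidermal cells from very-long-chain fatty acids, which KCS enzymes elongate. Of 13 wax genes 12 were tested, and 9 were lower (75.0%) and 0 higher, with a median of -1.03 and with all 12 estimates below 0. KCS1 (AT1G01120) had 13.5, 14.7 and 13.9 TPM in bou-2, against 46.6, 45.2 and 39.8 TPM in WT, with a log2 fold change of -1.75 ± 0.14 (SE, adjusted p = 5.04e-05). CER2 (AT4G24510), needed for elongation to the longest chains, had 14.8, 14.3 and 16.5 TPM in bou-2, against 43.9, 40.0 and 40.5 TPM in WT, with a log2 fold change of -1.55 ± 0.12 (SE, adjusted p = 5.14e-05). LTPG1 (AT1G27950), a lipid transfer protein that exports wax, had 128, 130.1 and 134 TPM in bou-2, against 302, 286 and 273 TPM in WT, with a log2 fold change of -1.25 ± 0.13 (SE, adjusted p = 0.000172). The libraries of each group were tight and the genotypes far apart. Of 21 KCS genes 15 were tested, with 8 lower (53.3%) and 0 higher, and CER6 (AT1G68530), the most abundant of those named, was at 108 ± 8.71 TPM in bou-2 and 197 ± 21.6 TPM in WT, with a log2 fold change of -0.97 (adjusted p = 0.0002). KCS1 and CER6 are counted in both the wax and the KCS list. Of the 3 epidermal markers, none at 0, 1 moved with them. Their sum was 107 to 151 TPM in bou-2 and 135 to 207 TPM in WT, ATML1 fell by 1.46, PDF1 and GL2 did not pass the test (-0.48 and -0.28), and the part of the epidermis in these results was not tested.

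Among the cell wall lists, the cellulose synthase family and the expansins had more lower than higher calls, while of 22 xyloglucan endotransglucosylases tested out of 30, a list added after its values were seen, 4 were higher and 4 lower (median 0.10). Of 37 cellulose synthase family genes 31 were tested, and 15 were lower (48.4%) and 3 higher, with a median of -0.69. CSLG3 (AT4G23990) had 8.62, 9.58 and 9.29 TPM in bou-2, against 25.7, 21.1 and 39.8 TPM in WT, with a log2 fold change of -1.75 ± 0.25 (SE, adjusted p = 0.000975). CSLA01 (AT4G16590) was at 0.0797 ± 0.0289 TPM in bou-2 and 4.25 ± 5.58 TPM in WT, with a log2 fold change of -5.74 ± 1.16 (SE, adjusted p = 0.00539), and the WT libraries ranged from 0.4 to 10.7 TPM. CSLG2 (AT4G24000) went the other way, at 11.9 ± 2.38 TPM in bou-2 and 0.77 ± 0.139 TPM in WT, with a log2 fold change of 3.84 (adjusted p = 0.0131). The 3 higher genes of the family became 0 without WT night replicate 1 and 1 without WT night replicate 2 or 3, and the CSLG2 call was lost without WT night replicate 1 or 2. Expansins loosen cell walls, and of 34 only 20 passed the filter on low counts, with 8 lower (40.0%) and 2 higher. EXPA5 (AT3G29030) had 18.4, 19.0 and 17.6 TPM in bou-2, against 89.7, 76.7 and 88.0 TPM in WT, with a log2 fold change of -2.31 ± 0.16 (SE, adjusted p = 3.26e-05). EXPA10 (AT1G26770) rose, at 109 ± 17.5 TPM in bou-2 and 52.9 ± 5.82 TPM in WT, with a log2 fold change of 0.94 (adjusted p = 0.00825), and the 2 higher expansins became 1 without any night library other than WT night replicate 3 and with no filter on low counts.

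Tubulins and histones mark growing and dividing cells. All 15 tubulin genes were tested, and 9 were lower (60%) and 0 higher (median -0.62), among them TUB5 (AT1G20010), at 59.3 ± 6.53 TPM in bou-2 and 117 ± 15.9 TPM in WT, with a log2 fold change of -1.09 (adjusted p = 0.00105), and TUA4 (AT1G04820), at 151 ± 11.5 TPM in bou-2 and 264 ± 32.8 TPM in WT, with a log2 fold change of -0.91 (adjusted p = 0.00208). The histone list, which also holds histone-modifying enzymes, had 32 lower (42.7%) and 7 higher of 75 tested out of 87, with a median of -0.29. AT5G59690, a core histone, had 112, 133 and 143 TPM in bou-2, against 311, 345 and 298 TPM in WT, with a log2 fold change of -1.42 ± 0.13 (SE, adjusted p = 0.000102), and HTA6 (AT5G59870), an H2A, was at 77.2 ± 9.58 TPM in bou-2 and 171 ± 13.3 TPM in WT, with a log2 fold change of -1.26 (adjusted p = 0.000171). The higher members were led by plant-specific histone deacetylases. HDA3 (AT3G44750) had 152, 148 and 182 TPM in bou-2, against 53.6, 50.3 and 37.0 TPM in WT, with a log2 fold change of 1.66 ± 0.18 (SE, adjusted p = 0.000199), and HD2B (AT5G22650) was at 320.1 ± 32.5 TPM in bou-2 and 146 ± 13.1 TPM in WT, with a log2 fold change of 1.02 (adjusted p = 0.000925). Core histone genes are near-identical copies, between which reads may be split. The 32 lower members became 21 without WT night replicate 2 or bou-2 night replicate 1, and the 7 higher ones 4 without WT night replicate 1.

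SAUR genes are small auxin-responsive genes of cell elongation, and 15 of 57 tested out of 78 were lower (26.3%) and 6 higher (10.5%). SAUR68 (AT1G29510) had 5.25, 4.05 and 4.14 TPM in bou-2, against 17.7, 20.7 and 19.9 TPM in WT, with a log2 fold change of -2.22 ± 0.25 (SE, adjusted p = 0.000273), and its neighbours AT1G29430 and AT1G29500 fell by 1.90 and 2.36 on the log2 scale. AT1G16510 rose, at 41.6 ± 7.13 TPM in bou-2 and 10.97 ± 1.25 TPM in WT, with a log2 fold change of 1.81 (adjusted p = 0.00668). The family thus held members moving in both directions.

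The NAC and WRKY families hold many stress regulators. NAC factors govern senescence and stress responses, and 17 of 64 tested out of 103 were higher (26.6%) and 1 lower (1.56%), with a median of 0.41. NAC019 (AT1G52890) had 16.6, 18.7 and 20.8 TPM in bou-2, against 3.11, 1.53 and 2.87 TPM in WT, with a log2 fold change of 2.79 ± 0.56 (SE, adjusted p = 0.00529). NAC003 (AT1G02220) had 18.4, 21.9 and 23.2 TPM in bou-2, against 3.46, 4.68 and 3.18 TPM in WT, with a log2 fold change of 2.38 ± 0.34 (SE, adjusted p = 0.000925), and NAC001 (AT1G01010) was at 12.3 ± 1.96 TPM in bou-2 and 3.06 ± 0.474 TPM in WT, with a log2 fold change of 1.90 (adjusted p = 0.000276). The 17 higher members became 11 without WT night replicate 1 or 2 or bou-2 night replicate 3. WRKY factors act in defence, and 8 of 55 tested out of 70 were higher (14.5%, near the 14.8% over all genes) and 2 lower. WRKY60 (AT2G25000) had 43.3, 38.9 and 52.1 TPM in bou-2, against 8.53, 10.9 and 9.13 TPM in WT, with a log2 fold change of 2.12 ± 0.26 (SE, adjusted p = 0.000473), and WRKY25 (AT2G30250), which responds to oxidative stress, was at 37.3 ± 4.88 TPM in bou-2 and 12.8 ± 2.17 TPM in WT, with a log2 fold change of 1.44 (adjusted p = 0.00562). The 2 lower WRKY genes became 1 without WT night replicate 2 or 3 or bou-2 night replicate 3, and the 8 higher ones became 4 without WT night replicate 1 or 2 or bou-2 night replicate 1 or 3.

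Salicylic acid and jasmonate genes stand for hormone-driven defence. Of the 22 salicylic acid genes, all tested, 4 were higher (18.2%, near the 14.8% over all genes) and 0 lower. CBP60G (AT5G26920), a regulator of salicylic acid synthesis, had 30.5, 24.9 and 31.7 TPM in bou-2, against 8.21, 7.02 and 11.6 TPM in WT, with a log2 fold change of 1.59 ± 0.41 (SE, adjusted p = 0.0181). PAD3 (AT3G26830), the last step of camalexin synthesis, had 92.6, 85.5 and 125 TPM in bou-2, against 28.2, 29.0 and 52.4 TPM in WT, with a log2 fold change of 1.37 ± 0.37 (SE, adjusted p = 0.0215). The reporters PR1, PR2 and PR5, named after their values were seen, gave log2 fold changes of 0.48 (adjusted p = 0.8), -0.08 (adjusted p = 0.943) and -0.12 (adjusted p = 0.935). For PAD3 the day effect had the other sign, -1.56 (adjusted p = 0.0132), and the difference of 2.93 (adjusted p = 0.0331) passed the test but was lost without any library other than WT night replicate 3 and the WT day libraries. At night the PAD3 call was lost without WT night replicate 1 or 2 or bou-2 night replicate 3, and the CBP60G call without these or bou-2 night replicate 1. The 4 calls of the list became 0 without WT night replicate 1 or bou-2 night replicate 3, 1 without WT night replicate 2 or bou-2 night replicate 1, 2 without WT night replicate 3 and 10 on the 6 night libraries alone. Of 29 jasmonate genes 28 were tested, with 1 higher, JAZ3 (AT3G17860) with a log2 fold change of 0.73 (adjusted p = 0.0199), and 1 lower, AOC4 (AT1G13280) with one of -1.08 (adjusted p = 0.004), and with a median that ran from -0.70 to 0.15 over the alternatives. The JAZ3 call was lost without WT night replicate 1 or 2 or bou-2 night replicate 1 or 2, while without WT night replicate 3 there were 2 higher genes and without WT night replicate 2 there were 3 lower ones.

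Clock genes were compared because the groups were taken at 1 time of the cycle, at which a shift in phase and a change in level cannot be told apart. Of 14 morning genes, all tested, 2 were higher and 4 lower. PRR7 (AT5G02810) had 3.06, 2.91 and 5.32 TPM in bou-2, against 0.947, 1.09 and 1.101 TPM in WT, with a log2 fold change of 1.74 ± 0.22 (SE, adjusted p = 0.000522), and RVE7 (AT1G18330) had 4.42, 3.78 and 4.31 TPM in bou-2, against 1.49, 1.67 and 1.49 TPM in WT, with a log2 fold change of 1.32 ± 0.14 (SE, adjusted p = 0.000177). CCA1 (AT2G46830), a core oscillator gene that peaks near dawn, had 129, 135 and 145 TPM in bou-2, against 186, 187 and 226 TPM in WT, with a log2 fold change of -0.66 ± 0.11 (SE, adjusted p = 0.00249), and LHY (AT1G01060), its partner, was at 72.1 ± 8.92 TPM in bou-2 and 112 ± 18.9 TPM in WT, with a log2 fold change of -0.73 (adjusted p = 0.00361). Of the 14 evening genes, all tested, 3 were higher and 1 lower. ELF3 (AT2G25930) had 30.1, 30.1 and 29.3 TPM in bou-2, against 15.7, 17.0 and 18.3 TPM in WT, with a log2 fold change of 0.71 ± 0.10 (SE, adjusted p = 0.000783), and TOC1 (AT5G61380), which represses CCA1, was at 26.3 ± 1.36 TPM in bou-2 and 17.2 ± 0.638 TPM in WT, with a log2 fold change of 0.51 (adjusted p = 0.0447). For PRR7 the difference between night and day was 2.398 (adjusted p = 0.00674), called under all 18 alternatives, and for RVE7 0.95 (adjusted p = 0.0403), lost without any library other than WT day replicate 3. The TOC1 call was lost without any 1 night library. The 4 lower morning genes became 2 with library totals and without WT night replicate 3 or bou-2 night replicate 2 or 3. The lower evening gene lost its call without WT night replicate 1 or bou-2 night replicate 3, and the 3 higher evening genes became 1 without WT night replicate 3 or bou-2 night replicate 3.

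Nitrate and ammonium genes split in direction. Of 16 members 14 were tested, and 5 were higher and 3 lower. NIA1 (AT1G77760), a nitrate reductase, had 114, 138 and 143 TPM in bou-2, against 51.9, 57.3 and 26.2 TPM in WT, with a log2 fold change of 1.43 ± 0.27 (SE, adjusted p = 0.00402). AMT1;2 (AT1G64780), an ammonium transporter, had 15.2, 16.1 and 15.5 TPM in bou-2, against 40.1, 45.2 and 52.4 TPM in WT, with a log2 fold change of -1.66 ± 0.17 (SE, adjusted p = 0.000197), and by day gave 0.14 (adjusted p = 0.594), a difference of -1.80 (adjusted p = 0.00937). NRT1.1 (AT1G12110), the nitrate transporter and sensor, had 75.2, 69.2 and 71.6 TPM in bou-2, against 112, 118 and 127 TPM in WT, with a log2 fold change of -0.83 ± 0.09 (SE, adjusted p = 0.000175), while by day it gave 0.47 (adjusted p = 0.00308), a difference of -1.30 (adjusted p = 0.00228). Both were lower in every bou-2 night library than in any WT night library. AMT1;1 (AT4G13510) was higher, at 104 ± 17.1 TPM in bou-2 and 62.4 ± 5.39 TPM in WT, with a log2 fold change of 0.63 (adjusted p = 0.0329). Both differences were called under all 18 alternatives. The 5 higher genes became 3, without AMT1;1, when any night library other than bou-2 night replicate 2 was left out.

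Transposable element genes are normally silenced by DNA methylation. The table holds 3891 of them, of which 368 passed the filter on low counts, many only through bou-2, so they are described over all 3891. At least 1 count was found for 1078, 1189 and 1181 of them in the bou-2 night libraries, against 456, 443 and 485 in the WT night libraries, or 27.7, 30.6 and 30.4% against 11.7, 11.4 and 12.5%. Their summed level was 1278, 1293 and 1352 TPM in bou-2, against 993, 945 and 964 TPM in WT. By day the number with a count was 1051, 1196 and 1007 in bou-2, against 669, 609 and 491 in WT, though the bou-2 day libraries were the shallower ones. Each bou-2 library thus had more of these genes detected than any WT library, at both times.

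**Figure D5:**
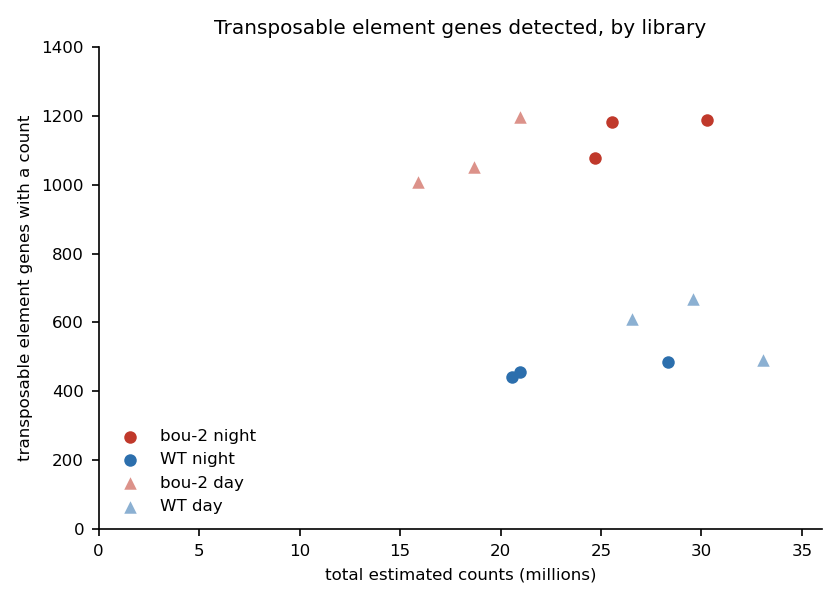
Number of transposable element genes (of 3891) with at least 1 count in each library against the total of estimated counts of that library, with circles for night and triangles for day, red for bou-2 and blue for WT. The bou-2 libraries sit at 1007 to 1196 and the WT libraries at 443 to 669, whatever their depth.

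Some single elements were close to off in WT and detected in each bou-2 night library. Most levels were low, with a median of 0.422 TPM in bou-2 among the elements called higher. AT1G49090 and AT1G49080, with means of 4.83 and 3.275 TPM in bou-2, lie above that median. AT1G49090 had 407 counts over the bou-2 night libraries against 3 over the WT night libraries, a ratio of 111 (95% counting interval 37.7 to 540), and AT1G49080 beside it 96 against 0, which is at least 26.2-fold higher with a floor of 3 counts over the WT group. A few elements were lower in bou-2. AT3G15310 had 18.4, 19.6 and 15.04 TPM in bou-2, against 39.3, 35.5 and 43.0 TPM in WT, with a log2 fold change of -1.25 ± 0.22 (SE, adjusted p = 0.00251), while by day it gave 1.07 (adjusted p = 0.00548), a difference of -2.33 (adjusted p = 0.00843), called under all 18 alternatives. SADHU4-1 (AT5G28913) was at 9.99 ± 0.813 TPM in bou-2 and 17.5 ± 2.25 TPM in WT, with a log2 fold change of -0.92 (adjusted p = 0.00115). Elements share sequence, and reads may have been split or shared between copies.

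The called silencing genes changed by less than 2-fold. Of 15 genes of DNA methylation and small RNA silencing, all tested, 4 were lower and 0 higher, with a median of -0.30. CMT2 (AT4G19020), which methylates long elements of the pericentromere, had 4.57, 4.19 and 4.27 TPM in bou-2, against 7.23, 6.82 and 6.97 TPM in WT, with a log2 fold change of -0.79 ± 0.14 (SE, adjusted p = 0.00315). MET1 (AT5G49160), the methyltransferase that maintains CG methylation, had 8.31, 8.01 and 8.13 TPM in bou-2, against 12.3, 13.2 and 12.1 TPM in WT, with a log2 fold change of -0.72 ± 0.18 (SE, adjusted p = 0.0162). NRPD1 (AT1G63020), the large subunit of polymerase IV, was at 1.54 ± 0.124 TPM in bou-2 and 2.03 ± 0.148 TPM in WT, with a log2 fold change of -0.50 (adjusted p = 0.0296), and DDM1, named after its values were seen, gave a log2 fold change of -0.46 (adjusted p = 0.22). The MET1 call was lost without WT night replicate 2 or bou-2 night replicate 2 or 3, and the NRPD1 call without any 1 night library. The 4 lower genes became 1 or 2 on leaving out any night library other than WT night replicate 3, or with library totals.

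The largest single rises were at genes with almost no transcript in WT. AT4G08593 (chromosome 4, 5469345 to 5470466) had 5.25, 5.12 and 5.22 TPM in bou-2, against 0, 0 and 0 TPM in WT, or 239 counts against 0, at least 65.2-fold higher with the floor of 3 counts over the WT group. AT4G07965 had 243 counts against 0 (at least 66.2-fold), AT4G16215 233 against 0 (at least 63.5-fold), AT5G03090 138 against 0 (at least 37.6-fold) and AT3G44006 126 against 0 (at least 34.4-fold). These 5 genes have no function in the annotation used. AT3G25719 had 490 counts against 2, a ratio of 200 (95% counting interval 55.2 to 1659). AT4G23680, a polyketide cyclase family gene, had 72.3, 105 and 55.7 TPM in bou-2, against 1.17, 1.27 and 0.481 TPM in WT, with a log2 fold change of 6.24 ± 0.53 (SE, adjusted p = 8.24e-05). TH8 (AT1G69880), an H-type thioredoxin, was at 13.9 ± 4.76 TPM in bou-2 and 0.212 ± 0.074 TPM in WT, with a log2 fold change of 5.89 ± 0.66 (SE, adjusted p = 0.000274), and LCR67 (AT1G75830), a small cysteine-rich protein, at 29.4 ± 17.7 TPM in bou-2 and 0.83 ± 0.763 TPM in WT, with a log2 fold change of 4.94 (adjusted p = 0.0133).

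The largest falls were led by AT3G21755 (chromosome 3, 7666298 to 7669480), annotated as a noncoding RNA, with 0 counts in bou-2 against 408 in WT, at least 166-fold lower with a floor of 3 counts over the bou-2 group. AT2G14247 had 0.415, 1.38 and 0.412 TPM in bou-2, against 56.5, 78.6 and 35.1 TPM in WT, with a log2 fold change of -6.30 ± 0.62 (SE, adjusted p = 0.000162). AT1G13609, a defensin-like gene, had 2.04, 3.44 and 1.40 TPM in bou-2, against 78.2, 115 and 71.4 TPM in WT, with a log2 fold change of -5.32 ± 0.55 (SE, adjusted p = 0.000181), and AT5G05250, without a function in the annotation, had 5.31, 6.16 and 3.86 TPM in bou-2, against 62.6, 72.4 and 62.0 TPM in WT, with a log2 fold change of -3.79 ± 0.16 (SE, adjusted p = 1.71e-06). XTH17 (AT1G65310), a cell wall xyloglucan enzyme, was at 0.365 ± 0.399 TPM in bou-2 and 6.996 ± 1.29 TPM in WT, with a log2 fold change of -4.37 ± 0.61 (SE, adjusted p = 0.000835), and AGP41 (AT5G24105), an arabinogalactan protein, at 5.27 ± 1.48 TPM in bou-2 and 36.2 ± 2.47 TPM in WT, with a log2 fold change of -2.90 ± 0.30 (SE, adjusted p = 0.000181). The kit does not mark strand, so reads of a gene and of an overlapping antisense gene cannot be told apart.

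Among the 15 largest falls, NIG1 lay next to BOU itself. NIG1 (AT5G46830) (chromosome 5, 19002564 to 19004384), annotated as inducible by sodium chloride, had 0.833, 1.52 and 1.11 TPM in bou-2, against 7.14, 5.66 and 12.9 TPM in WT, with a log2 fold change of -2.98 ± 0.43 (SE, adjusted p = 0.00097), and starts 14 kb beyond the start of BOU. It is the next gene tested on that side. Of the 5 genes tested on each side of BOU, up to 26.6 kb away, 1 was called at night, which was NIG1, and the other 9 lay between -0.31 and 0.42 on the log2 scale. By day NIG1 gave -2.66 (adjusted p = 0.00155), and 2 of these neighbours on the other side of BOU were also called lower, UBP21 with -0.67 (adjusted p = 0.00967) and AGD9 with -0.34 (adjusted p = 0.0381). What links this fall to the insertion line was not tested.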

How the data were processed

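Illumina TruSeq RNA libraries (which do not mark strand) were pseudoaligned by the authors with kallisto 0.43.0 to the TAIR10 transcriptome. The deposited table gives for each transcript the estimated counts of each library, used here after rounding to whole numbers, and TPM values computed by the authors, used for levels. The SD columns of the deposited TPM values (a signal) were not used, and neither were the authors' own comparisons, the sleuth 0.28.1 q-values (p-values adjusted by the authors) and log2 ratios. Of 41415 lines, 23 repeated ones were dropped, and each locus was represented by its transcript with the highest mean TPM over the WT libraries.

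A single model over all 12 libraries was fitted with edgeR 4.0.16 (quasi-likelihood test, TMM factors, R 4.3.3) after filterByExpr (minimum count 10, minimum total 15, proportion 0.7). It tested 26153 transcripts, whose p-values were Benjamini-Hochberg adjusted together, and the threshold for a call was 0.05. The night effect and the difference between the night and day effects are contrasts of this model. The script was tested on simulated data. Fold changes are bou-2 over WT.

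Members and lists were chosen with earlier results of these data known. Of 78 lists, 39 are described and the xyloglucan endotransglucosylases only counted. The genes named were drawn first from BOU and the 15 largest rises and 15 largest falls. These rises and falls were called under every alternative, with at least 5 TPM in a night group and no overlap. The 10 most abundant nuclear protein-coding genes of WT at night and the 10 largest night-day differences were added. Each list gave up to 4 genes per direction called at 2 TPM or more. Others are said to be named after their values were seen, or are members of a count given. The alternatives were other scalings, no filter, DESeq2 1.42.0, counts summed per gene, the night libraries alone, a replicate block and leaving out each library, and the day libraries were left out in turn as a choice made after seeing the data. Counting intervals cover counting error only (95%, exact). Coordinates and promoters are from RefSeq's TAIR10.1.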

Additional observations from a re-analysis of the deposited data

Results flagged for a closer look

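The effect of bou-2 differed between night and day, by the interaction contrast in edgeR with adjusted p-values, for 132 genes with the more positive effect at night and 110 with the more negative one, of 20458 tested. The values below are differences of log2 fold changes, night minus day. Beside those given above (3.23 for AT3G15450, 2.13 for TPS8, 1.8 for TPS11, 1.30 for TPS10, 2.4 for PRR7, 0.95 for RVE7, 2.93 for PAD3, -1.8 for AMT1;2, -1.30 for NRT1.1 and -2.33 for AT3G15310), AT3G07350 gave 3.88 and AT5G19120 gave 3.74, and both were called under all 18 alternatives.

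Other large differences lost their call when single libraries were left out. HSFA6A gave 7.53, AT5G10660 7.15, ERF53 5.89, AT5G45630 4.88, DIP2 4.39, AT2G28400 3.71, YLS9 3.70 and PXMT1 3.69. AT5G10660 was not called at night (-0.365, adjusted p = 0.721 in edgeR), and its groups were at 0.331 (bou-2) and 0.397 TPM (WT). Its difference lay in the day effect of -7.52. Day means were 7.89e-09 TPM in bou-2 and 0.767 TPM in WT. The AT5G10660 call was also lost with DESeq2's Wald test, counts summed per gene and the replicate block. The replicate block also ended the calls of HSFA6A, ERF53, AT2G28400, YLS9 and PXMT1. The calls of HSFA6A and AT5G10660 were lost on leaving out any 1 of 10 libraries, those of YLS9 and PXMT1 any 1 of 9, those of ERF53 and AT2G28400 any 1 of 7, that of AT5G45630 any 1 of 6 and that of DIP2 WT night replicate 1, bou-2 night replicate 3 or bou-2 day replicate 3.

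Among the genes called at night, AT4G15680, of the thioredoxin superfamily, had a difference of 3.30 and AT2G27420, a cysteine proteinase, one of -1.96, GBSS1 one of -1.45 and the LBD factor gene LBD38 one of 1.05. These 4 calls were lost on leaving out any 1 of 7, 10, 8 and 9 libraries.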

How the results depend on the processing

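No gene called at night was called in the opposite direction under any of the 13 night alternatives. Leaving out 1 night library left 1913 to 2256 higher and 1606 to 1903 lower genes of 3022 and 2499. The 6 night libraries alone gave 3912 higher and 3647 lower genes. Of the values of the genes named for the lists, 3081 kept their side of the threshold, 266 (of 50 genes) lost it and 4 gained it. For the difference between night and day (132 positive and 110 negative), DESeq2's Wald test gave 488 and 552, and counts summed per gene gave 205 and 207. Leaving out 1 library gave 30 to 534 positive and 22 to 548 negative calls, where the highest are those without WT day replicate 3 (the day libraries were left out as a choice made after seeing the data). The sources do not say whether the replicate numbers pair the samples. Over all transcripts tested, the correlations of same-numbered deviations at night were -0.024, -0.0181 and 0.00595. Such values over all transcripts do not settle whether some genes share a pairing. With the replicate block, 2627 genes were higher and 2125 lower at night, and the difference was positive for 47 genes and negative for 49. Depth limits the lowest genes, of which those at 0 in WT have only a lower bound of the fold change, and 3 libraries per group limit every call.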
